A study of Danio rerio with 18 samples.

Results

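The gene tpra (ENSDARG00000052914) encodes one of a pair of zebrafish homologues of TPR, the long coiled-coil protein that forms the filaments of the nuclear basket. The basket hangs from the inner face of the nuclear pore. In human and yeast cells TPR and its homologues are known for surveying mRNAs before export and for anchoring checkpoint proteins of the mitotic spindle. The base studied here is 5-methylcytosine (m5C) in mRNA, which NSUN2 and NSUN6 deposit. In early animal embryos most mRNA was made by the mother in the oocyte, and it is cleared and replaced by transcripts of the embryo's own genome during the maternal-to-zygotic transition. A level of m5C at a given stage is therefore an average over older maternal and newer zygotic copies of a transcript.

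The sites described were all entries that the stage lists assign to the symbol tpra. They were 38 of 21214 entries, and 10 of 9047 distinct sites. The gene was selected on its number of listed sites at 0, 2 and 4 hours post fertilisation (hpf), so these numbers are a description and carry no test. Of 4966 genes with a site at those stages, 4 had more than 10 sites, 4 had 10, tpra among them, and 6 had 9, while 59.8% had a single site.

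Polyadenylated RNA of pooled wild-type AB zebrafish, from natural crosses, was bisulfite-converted and sequenced at 0, 2, 4, 6 and 8 hpf and then at 10, 16, 24 and 48 hpf, with no treatment or mutation in any group. Each stage had 2 libraries, 18 in all. Bisulfite conversion makes unmethylated C read as T, so that the level of a site is the share of C among its C and T reads, and their sum is its coverage. A list holds 1 value per site with both libraries combined, so the spread between replicates is unknown for every value given here. Intervals in brackets are 95% intervals (Wilson for a level, Newcombe for a difference) and cover counting error only, with PCR copies not told apart. Sites entered a list only with at least 20 reads and a level of at least 10%, so an unlisted site may be unmethylated, below 10%, too thinly covered or removed by another filter. Over the lists of 0 to 8 hpf the median coverage of all sites ranged from 97 to 167 reads.

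All 10 tpra sites lay on chromosome 2, minus strand, between positions 20596812 and 20634534 of the Zv9 assembly. They spanned 37722 nt of genome, introns included, and are numbered here in the order of transcription. Site 1 was at 20634534. Sites 2, 3 and 4, at 20626949, 20626465 and 20625851, formed a first group with gaps of 484 and 614 nt. Site 5 was at 20619294 and site 6 at 20611049, 6557 and 7597 nt from their nearest neighbours. Sites 7, 8 and 9, at 20603452, 20602977 and 20602326, formed a second group with gaps of 475 and 651 nt. Site 10, the most downstream, was at 20596812. No 2 sites were closer than 475 nt. Which exons hold them was not analysed here.

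The list of 0 hpf held all 10 sites, those of 2 and 4 hpf held 9, the list of 6 hpf held 8 and that of 8 hpf held 2. No tpra site was listed at 10, 16, 24 or 48 hpf, where all genes together had 428, 21, 14 and 25 sites. At 6 hpf no other gene had as many as 8 sites, though chd7, SPEN, huwe1 and lrp1b, described below, had 7 each. At 0 hpf 1 other gene also had 10. At 2 hpf and at 4 hpf 1 gene had more sites than tpra, and at 8 hpf 45 genes did. Sites 1 and 7 were listed at 5 stages, from 0 to 8 hpf. Sites 2, 3, 4, 6, 8 and 9 were listed at each stage from 0 to 6 hpf, site 10 from 0 to 4 hpf, and site 5 at 0 hpf with 5 C reads among 25.

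Through 4 hpf, most tpra sites were methylated above the typical listed site. Their median level was 24.4% at 0 hpf, 27.4% at 2 hpf and 27.5% at 4 hpf, against 19.4%, 19.3% and 19.2% for all sites of those lists. At each of these stages 8 tpra sites exceeded the median of the list, with site 5 among them at 0 hpf and site 4 at 2 and 4 hpf. The 0 hpf intervals of site 3 (15.4% to 26.8%) and site 5 (8.86% to 39.1%) reached below that median. So did those of site 4 at 2 hpf (14.6% to 38.1%) and 4 hpf (17.3% to 37.1%). At 6 hpf the tpra median was 18.3% over 8 sites, with 4 of them above the median of 18.9% for all sites. At 8 hpf the remaining 2 sites were both under the list median of 16.5%. In the 8 sites listed at all of 0, 2, 4 and 6 hpf, the median went from 26.8% to 32.7%, 30.6% and lastly 18.3%.

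**Figure D1:**
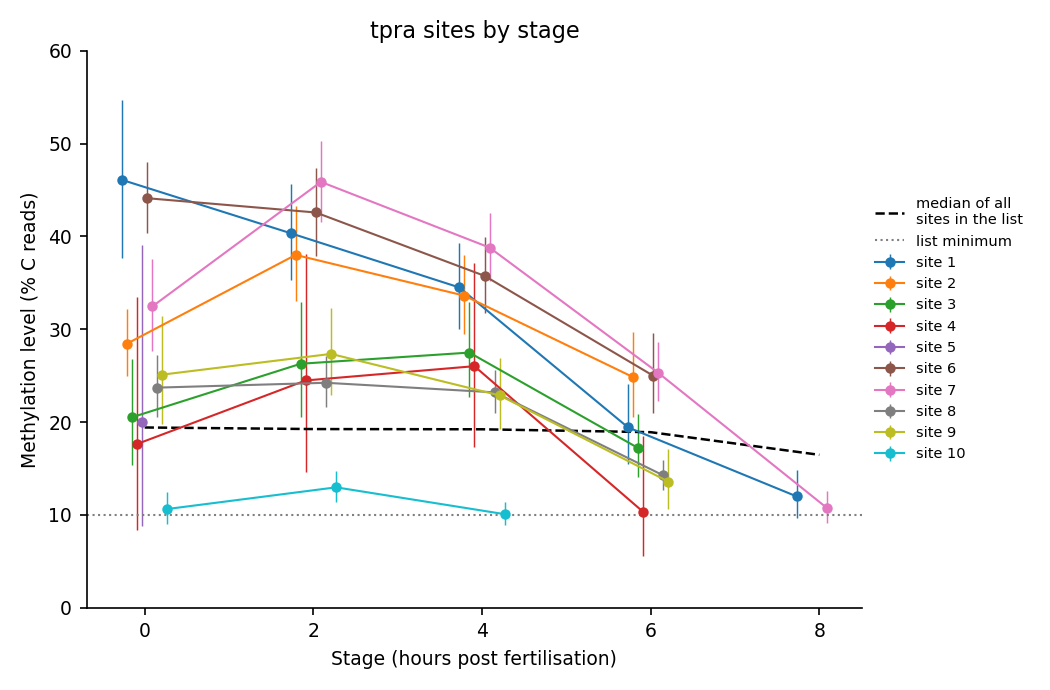
Methylation level in percent of C reads (y axis) of each tpra site against stage in hours post fertilisation (x axis, sites slightly offset). Bars are Wilson 95% intervals, the dashed line is the median of all sites in the list and the dotted line the list minimum of 10%. Levels lay between 10.1% and 46.1% through 4 hpf, between 10.3% and 25.3% at 6 hpf, and at 10.8% and 12.01% at 8 hpf.

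Site 1, the most upstream, had the highest level of the gene at 0 hpf. It was 46.1% of 128 reads (37.7% to 54.7%) at 0 hpf, 40.4% of 342 reads (35.3% to 45.6%) at 2 hpf and 34.5% of 397 reads (30.001% to 39.3%) at 4 hpf. It then stood at 19.4% of 324 reads (15.5% to 24.1%) at 6 hpf and 12.01% of 608 reads (9.66% to 14.8%) at 8 hpf. The intervals of neighbouring stages overlapped up to 4 hpf, and the 6 and 8 hpf levels lay below all of the earlier ones. Site 6 was next, with 44.1% of 646 reads (40.3% to 48.0%) at 0 hpf, 42.6% of 411 reads (37.9% to 47.4%) at 2 hpf, 35.8% of 523 reads (31.8% to 40.0%) at 4 hpf and 25% of 384 reads (20.9% to 29.6%) at 6 hpf. Its 6 hpf interval was apart from all earlier ones.

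Site 7 was the other site that lasted to 8 hpf, and it took the first place at 2, 4 and 6 hpf. It had 32.5% of 342 reads (27.7% to 37.6%) at 0 hpf, 45.9% of 497 reads (41.5% to 50.3%) at 2 hpf and 38.8% of 683 reads (35.2% to 42.5%) at 4 hpf. At 6 hpf the level was 25.3% of 719 reads (22.3% to 28.6%) and at 8 hpf 10.8% of 1227 reads (9.15% to 12.6%). Site 2 had a similar course, with 28.5% of 594 reads (25.0% to 32.2%), 38.0% of 342 reads (33.0% to 43.3%), 33.6% of 461 reads (29.5% to 38.1%) and 24.9% of 342 reads (20.6% to 29.7%) from 0 to 6 hpf.

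The close neighbours of these sites had lower levels. Site 3, 484 nt from site 2, had 20.5% of 190 reads, 26.3% of 194, 27.5% of 291 and 17.2% of 482 from 0 to 6 hpf. Site 4 was thinly covered, with 17.6% of 34 reads, 24.5% of 49, 26.0% of 73 and 10.3% of 87. Its 6 hpf level was just inside the list minimum, and its intervals overlapped from 0 to 4 hpf. Site 8, 475 nt from site 7, was deeply covered and had 23.7% of 624 reads, 24.24% of 920, 23.2% of 1241 and 14.3% of 1788. Site 9 had 25.1% of 211 reads, 27.4% of 351, 22.9% of 459 and 13.6% of 434. Site 8 thus kept within 1.03 percentage points between 0 and 4 hpf before its 6 hpf value.

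Site 10, the farthest downstream, had the deepest coverage and the lowest level at 0, 2 and 4 hpf. It had 10.65% of 1240 reads (9.05% to 12.5%), 13.0% of 1541 reads (11.4% to 14.7%) and 10.1% of 2122 reads (8.87% to 11.4%). At 4 hpf it stood just above the list minimum, and it was not listed at 6 hpf. Coverage and level ranged widely within the gene, from 73 to 2122 reads and from 10.1% to 38.8% at 4 hpf.

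The order of the levels was alike between consecutive stages up to 6 hpf and less so between 0 and 6 hpf. Over the 9 sites listed at both stages, Spearman's rho of the levels was 0.88 for 0 and 2 hpf and 0.90 for 2 and 4 hpf, and over 8 sites it was 0.90 for 4 and 6 hpf and 0.74 for 0 and 6 hpf. Pearson's r in the same order was 0.87, 0.97, 0.89 and 0.65. These sites share transcript and libraries, and the values are given as a description. Most neighbours in the order did not differ beyond counting error. At 0 hpf 1 of 9 neighbouring pairs had an interval of the difference above 0, namely site 6 over site 7 by 11.7 points (5.28 to 17.8). At 2 hpf it was 2 of 8 pairs, site 2 over site 9 by 10.7 points (3.68 to 17.5) and site 8 over site 10 by 11.3 points (8.07 to 14.5). At 4 hpf it was 1 of 8 pairs, site 9 over site 10 by 12.8 points (8.94 to 17.0). At 6 hpf it was 0 of 7 pairs and at 8 hpf 0 of 1. Site 10 was last at 0, 2 and 4 hpf, and sites 1, 2, 6 and 7 held the first 4 places at each of these stages and at 6 hpf.

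**Figure D2:**
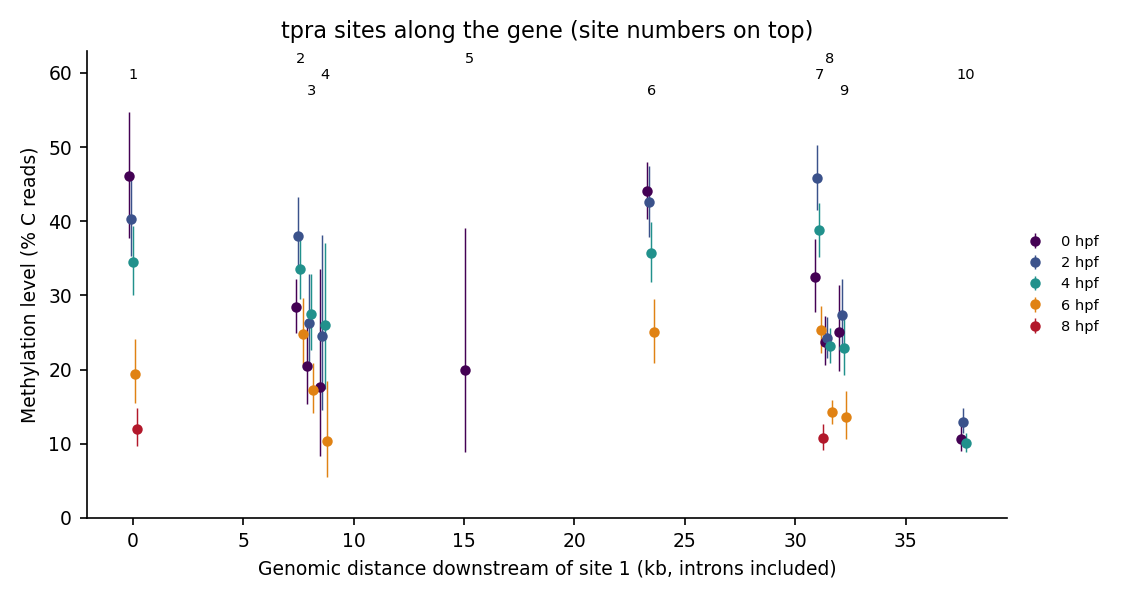
Level in percent of C reads (y axis) against genomic distance downstream of site 1 in kb, introns included (x axis), with stages in colour, Wilson 95% intervals as bars and the site numbers on top. Sites 1, 2, 6 and 7 take the first 4 places at 2 and 4 hpf, and site 10, at 37722 nt, has the lowest level at each stage that lists it.

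Levels did not fall steadily along the gene, though Spearman's rho of level with distance downstream was negative at 0, 2, 4 and 6 hpf. This correlation was strongest at 4 hpf, with Spearman's rho -0.58 and Pearson's r -0.47 over 9 sites. At 0 hpf they were -0.36 and -0.31 over 10 sites, at 2 hpf -0.42 and -0.32 over 9, and at 6 hpf -0.21 and 0.01 over 8. For level and coverage, which share the reads of a site, Spearman's rho was -0.13 and Pearson's r -0.69 at 4 hpf, and at 6 hpf they were 0.21 and -0.11. At 2 hpf they were -0.13 and -0.52, and at 0 hpf 0.10 and -0.20. Site 10 combines the lowest level with the deepest coverage at 0, 2 and 4 hpf. Coverage at 4 hpf was above the list median at 8 of 9 sites, so tpra levels were measured on more reads than most.

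Levels at consecutive stages were compared next, to follow tpra methylation through the maternal-to-zygotic transition. For every site listed at both stages the C and T reads were set against each other in Fisher's exact test (two-sided), and p values were adjusted by Benjamini-Hochberg over the sites of all genes in the comparison. A site was called changed at an adjusted p under 0.05. Listing at 0, 2 and 4 hpf chose the gene, and any comparison that uses a list of those stages is not independent of that choice. The comparison of 4 with 6 hpf is included, because its earlier levels come from the 4 hpf list. Also, a site can enter a comparison only with at least 10% at both stages, so falls to lower levels are not seen. The test takes no account of variation between libraries. For this reason a second adjusted p is given for the calls in tpra and in the genes named beside it. It comes from a z test with extra spread between stages, whose size was set from all sites of 2 and 4 hpf. In the comparison of those stages, few calls with the extra spread therefore follow by construction.

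From 0 to 2 hpf, 7 of 9 tpra sites had a higher and 2 a lower value, with a median change of 2.33 percentage points against -0.25 for all 3373 sites. Site 7 was called higher, by 13.4 points (6.70 to 19.9, exact adjusted p = 0.00266), and so was site 2, by 9.56 points (3.32 to 15.9, exact adjusted p = 0.0338). With the extra spread the adjusted p values were 0.116 and 0.347, and neither was called. None was called lower. Over all sites 4.83% were called higher and 4.86% lower by the exact test, and 1.1% and 1.42% with the extra spread.

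From 2 to 4 hpf no tpra site passed the threshold of Fisher's exact test, and 3 had an unadjusted p under 0.05. With the extra spread, whose size was set from this same comparison, the lowest adjusted p was 0.809. The values of 7 sites were lower and of 2 higher, with a median change of -4.39 points against -0.63 for all 4587 sites. The largest difference was at site 7, -7.08 points (-12.7 to -1.37, exact adjusted p = 0.162). Over all sites 1.92% were called higher and 4.03% lower by the exact test, and 0.305% and 0.589% with the extra spread. The comparison of 0 with 4 hpf, which shares lists with those above, gave a median of -0.51 points over 9 sites. It called site 6 alone, which fell by 8.36 points (-13.9 to -2.71, exact adjusted p = 0.0472 and adjusted p = 0.493 with the extra spread). Of the 3184 sites of all genes in it, 3.27% were called higher and 5.4% lower by the exact test, and 0.66% and 0.848% with the extra spread.

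From 4 to 6 hpf all 8 tpra sites listed at both stages were called lower by Fisher's exact test. The 4 hpf list also took part in choosing the gene, so this count is not independent of that choice. The 8 sites also share transcript and libraries and are not replicates of each other. Over all genes 34.1% of 2367 sites were called lower and 1.01% higher, and of the 1466 sites with at least 100 reads at both stages 47% were called lower. The tpra changes ran from -15.7 points at site 4 to -8.77 points at site 2, with a median of -10.5 points, against -4.99 points for all sites. In relative terms the median tpra site had 0.620 of its 4 hpf level at 6 hpf, against 0.815 for all sites. The minimum of 10% at both stages limits the fall that a site can show, and more tightly where its 4 hpf level is low. The median level in the 4 hpf list was 27.5% in tpra and 19.2% over all sites. Whether tpra fell more than sites of like starting level was not tested. The calls took in both groups of neighbouring sites and the isolated sites 1 and 6.

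Sites 1, 7, 8, 9 and 3 were called by both tests. Site 1 fell by 15.1 points (-21.3 to -8.58, exact adjusted p = 3.47e-05) and site 7 fell by 13.5 points (-18.3 to -8.61, exact adjusted p = 4.73e-07). Site 8, with the most reads, fell by 8.95 points (-11.8 to -6.12, exact adjusted p = 3.88e-09). Site 9 fell by 9.28 points (-14.3 to -4.22, exact adjusted p = 0.00163) and site 3 fell by 10.3 points (-16.5 to -4.25, exact adjusted p = 0.0040). With the extra spread their adjusted p values were between 0.00491 and 0.0494. By that test 24.9% of the sites of all genes were called lower and 0.169% higher.

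The other 3 calls were lost with the extra spread. Site 6 fell by 10.8 points (-16.6 to -4.69), with exact adjusted p = 0.00266 and adjusted p = 0.0584 with the extra spread. Site 4 fell by 15.7 points (-27.8 to -3.77), with 0.0359 and 0.0637. Site 2 fell by 8.77 points (-14.9 to -2.38), with 0.0255 and 0.157. The intervals of the 8 changes all overlapped each other.

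From 6 to 8 hpf the comparison rests on sites 1 and 7. Site 7 fell by 14.6 points (-18.2 to -10.99, exact adjusted p = 1.54e-15 and adjusted p = 8.93e-06 with the extra spread). Site 1 fell by 7.44 points (-12.7 to -2.59), with exact adjusted p = 0.00818 and adjusted p = 0.0642 with the extra spread. The median change of all 754 sites was -8.99 points, and 46.2% were called lower and 3.58% higher by the exact test, against 40.6% and 2.52% with the extra spread. Site 7 therefore had 0.425 of its 6 hpf level at 8 hpf, and site 1 had 0.617.

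**Figure D3:**
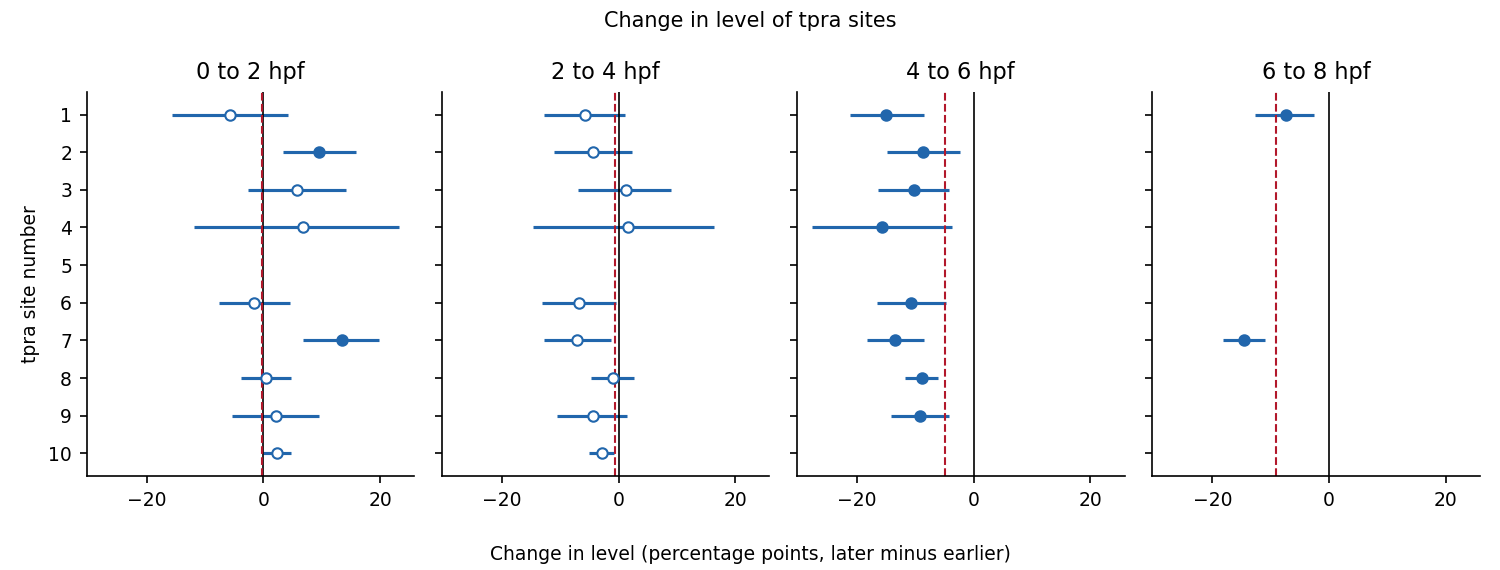
Change in level in percentage points, later minus earlier stage (x axis), of each tpra site (y axis) in 4 comparisons of consecutive stages, with Newcombe 95% intervals. Filled points passed a Benjamini-Hochberg adjusted p of 0.05, and the dashed line is the median change of all sites in the comparison. Filled points are 2 sites to the right of 0 from 0 to 2 hpf, none from 2 to 4 hpf, 8 to the left from 4 to 6 hpf and 2 to the left from 6 to 8 hpf.

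The C and T reads behind these falls are given next. At a site with a lower level, a smaller ratio for C than for T reads follows by arithmetic. Between 4 and 6 hpf, C reads were fewer at 7 of the 8 sites and T reads were more numerous at 6. Summed over the 8 sites, C reads went from 1236 to 832 and T reads from 2892 to 3728. The median ratio of reads at 6 to those at 4 hpf was 0.555 for C and 1.17 for T in tpra, against 0.387 and 0.552 over the 2367 sites of all genes. Both kinds of read were thus fewer at the typical site, and the tpra ratios were above the typical one for both. At site 8, C reads went from 288 to 255 and T reads from 953 to 1533. At site 3, C reads were 80 and 83 while T reads went from 211 to 399. At site 1, C reads went from 137 to 63 and T reads were 260 and 261. Sites 2 and 6 had fewer reads of both kinds. From 6 to 8 hpf, site 1 had 63 and 73 C reads and 261 and 535 T reads, and site 7 had 182 and 132 C reads and 537 and 1095 T reads. These are reads as deposited, not scaled to the depth of the libraries, which was not used here.

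At 6 hpf tpra coverage was above that of 4 hpf at 4 sites and below it at the other 4, while it was lower at 87.3% of the shared sites of all genes. The median ratio of coverage at 6 to that at 4 hpf was 0.999 over the 8 tpra sites, from 0.734 at site 6 to 1.66 at site 3, and it was 0.488 over all 2367 shared sites. All 8 tpra ratios were above that median, the lowest exceeding 74.1% of shared sites. Coverage in the genes most like tpra is given below. The 8 sites share transcript and libraries, so these ratios are not 8 separate observations. From 6 to 8 hpf the ratios were 1.88 at site 1 and 1.71 at site 7, against a median of 0.816 over 754 sites. These ratios cover sites that stayed in the list. The samples are whole embryos, in which the number of cells with the transcript and its amount per cell cannot be told apart.

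**Figure D4:**
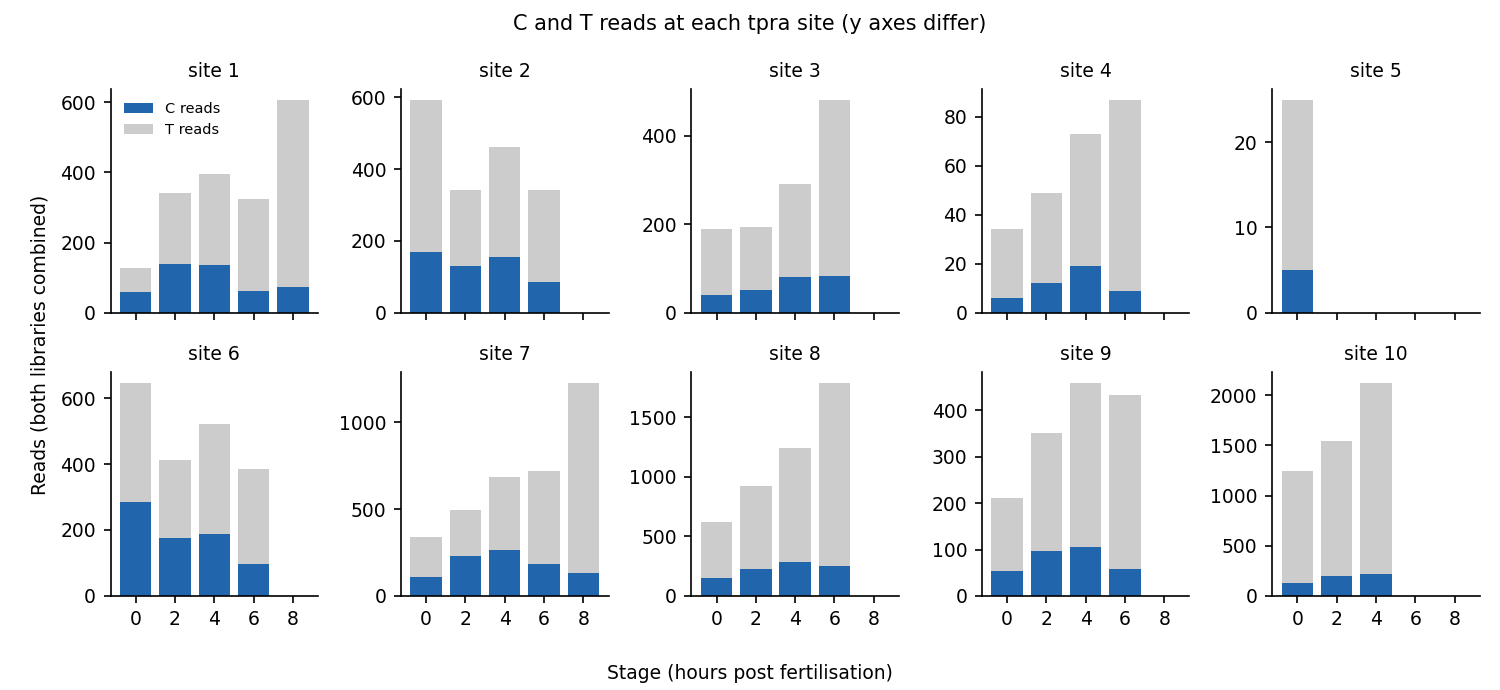
C reads (blue) and T reads (grey) at each tpra site (y axis, both libraries of a stage combined, with a scale of its own in each panel) against stage in hours post fertilisation (x axis). A stage with no bar has no listed value. Between 4 and 6 hpf T reads rise at 6 of 8 sites and C reads at 1 of 8, and at sites 1 and 7 the 8 hpf bars are the tallest.

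Between 0 and 2 hpf coverage did not move in step along the gene. The ratio of 2 to 0 hpf was 2.67 at site 1 but 0.576 at site 2 and 0.636 at site 6, with 1.35 as the median of all shared sites. From 2 to 4 hpf coverage was higher at all 9 tpra sites, with ratios between 1.16 and 1.5. The 2 sites with the lowest coverage ratio from 0 to 2 hpf were site 2, which was called higher, and site 6, which was not called.

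The paralogue tprb (ENSDARG00000016630, chromosome 20, minus strand) had 4 listed sites. How far reads shared by the paralogues enter either gene was not tested. Its deepest site, at 34081292, had 20.4% of 1219 reads at 0 hpf, 20.1% of 890 at 2 hpf, 13.3% of 1350 at 4 hpf and 10.7% of 1239 at 6 hpf. From 2 to 4 hpf the difference was -6.78 points (-10.03 to -3.63), called by the exact test (exact adjusted p = 0.000983) but not with the extra spread (adjusted p = 0.458). The difference from 4 to 6 hpf was -2.60 points (-5.10 to -0.08), with exact adjusted p = 0.113. The sites at 34066655 and 34066868 were last listed at 4 hpf, with 12.4% of 161 reads and 25.9% of 58. The fourth, at 34086674, appeared just at 2 hpf, where 4 of its 40 reads were C. The difference between the paralogues was not tested.

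Other proteins of the basket had fewer listed sites. The gene nup153, whose product anchors TPR to the pore, had 5 sites on chromosome 19, of which 5 were listed at 0 hpf, 2 at 2 and 4 hpf and 1 at 6 hpf. Its site at 47881979 had 74.0% of 96 reads, 77.7% of 94 and 57.4% of 68 from 0 to 4 hpf. Its site at 47882159 had 10.2% of 176 reads, 26.1% of 138, 26.8% of 97 and 11.8% of 34 from 0 to 6 hpf, with a difference of 15.9 points from 0 to 2 hpf (exact adjusted p = 0.00554, and adjusted p = 0.0557 with the extra spread) and an uncalled difference of -15.0 points from 4 to 6 hpf (exact adjusted p = 0.204). The gene nup50, for a mobile basket protein that takes part in import, had 3 sites, all listed at 0 hpf with levels of 10.4% to 13.3%. Its site at 60264188 was listed again at 4 hpf, with 12.5% of 48 reads.

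The gene zc3hc1, which in human cells encodes a further basket component that binds TPR, had 3 sites on chromosome 4, none of them listed at 0 hpf. The site at 14074727 had 56.8% of 926 reads at 2 hpf, 74.2% of 989 at 4 hpf, 47.7% of 493 at 6 hpf and 25.1% of 475 at 8 hpf. It was called higher from 2 to 4 hpf (17.4 points, 13.2 to 21.6) and fell by 26.5 points (-31.7 to -21.3) from 4 to 6 hpf, with exact adjusted p = 2.58e-22. With the extra spread the adjusted p values of these changes were 0.00287 and 3.84e-09. The site at 14073739 had 35.6% of 118 reads at 2 hpf and 11.5% of 52 at 4 hpf, called by the exact test (exact adjusted p = 0.0311) but not with the extra spread (adjusted p = 0.176), and the site at 14074629 had 6 C reads among 45 at 2 hpf. The site at 14074727 was called lower again from 6 to 8 hpf, with exact adjusted p = 1.71e-12 and adjusted p = 3.10e-06 with the extra spread. So were tpra site 7 by both tests and tpra site 1 by the exact test only. All 4 compared sites of pore genes other than tpra, this one among them, were called lower by both tests. Over the sites of all genes the shares were 46.2% by the exact test and 40.6% with the extra spread.

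Of 61 further names of pore proteins and their transport partners, 34 genes had a listed site, with 89 sites in all. Between 4 and 6 hpf, 29 of these sites could be compared, of which 9 were called lower and 1 higher by Fisher's exact test, with a median change of -4.91 points. Of these, 7 were called lower and 0 higher with the extra spread. The background is the 34.1% of all sites called lower by the exact test and 24.9% with the extra spread. By role and the exact test, 3 of 7 sites of the Y complex of the pore's outer rings were called lower. The inner ring had 2 of 7, the cytoplasmic side 0 of 6 and the transmembrane proteins 0 of 1. The transport and basket partners had 3 of 5, and the basket besides tpra had 1 of 3. With the extra spread the numbers called lower, in this order of roles, were 2, 1, 0, 0, 3 and 1. With 1 site taken per gene, the largest falls outside the basket were in xpo1a, kpnb3 and nup85. The first is the gene of the main nuclear export receptor, kpnb3 is an importin gene and nup85 a Y complex gene. The xpo1a site at 54231504 of chromosome 1 fell by 41.0 points (-44.5 to -37.3), from 57.1% of 1119 reads to 16.1% of 1174, with exact adjusted p = 2.74e-94. The kpnb3 site at 2036157 of the same chromosome fell by 16.7 points (-25.5 to -6.70) and the nup85 site at 6927266 of chromosome 3 fell by 15.4 points (-22.5 to -7.60). With the extra spread the adjusted p values of these 3 falls were 9.50e-25, 0.0248 and 0.0124. A second xpo1a site, at 54244261, fell by 29.3 points (-40.8 to -16.2). Its exact adjusted p was 0.000116, and its adjusted p with the extra spread was 0.000812. The 1 site called higher, named here after its value was seen, lay in gle1, for an activator of mRNA export on the cytoplasmic side. It had 18.4% of 3960 reads and 21.5% of 2165, with exact adjusted p = 0.0127, and was not called with the extra spread (adjusted p = 0.515).

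By the number of listed sites at each of the 9 stages, the gene most like tpra among 185 with at least 5 sites was chd7, a chromatin remodeller gene, with a summed difference of 5 sites. SPEN, for a nuclear regulator of transcription, and huwe1, for a ubiquitin ligase, followed with 7 each, as did lrp1b, which differed more in mean level. The levels of these genes were not all alike. At 4 hpf the median level was 54.7% in chd7, 24.6% in SPEN and 29.6% in huwe1. In the step from 4 to 6 hpf, 7 of 7 chd7 sites, 2 of 7 SPEN sites and 4 of 6 huwe1 sites were called lower, with median changes of -28.6, -7.75 and -12.7 points. The numbers called lower with the extra spread were 7, 1 and 3, beside 5 of 8 in tpra. Over the sites of all genes, 34.1% were called lower by the exact test and 24.9% with the extra spread. Median coverage of the listed sites at 4 and 6 hpf was 461 and 409 reads in tpra. It was 348.5 and 476 in chd7, 120 and 224 in huwe1, and 292.5 and 88 in SPEN. Coverage that did not drop sharply by 6 hpf was thus not particular to tpra. Of the other genes with 10 or more sites over 0, 2 and 4 hpf that are named here, lrp1b had 1 of 6 sites called lower, cdk13 2 of 2, arid1aa 1 of 1 and si:ch211-233a24.2 1 of 2, and with the extra spread the call in si:ch211-233a24.2 was lost.

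**Figure D5:**
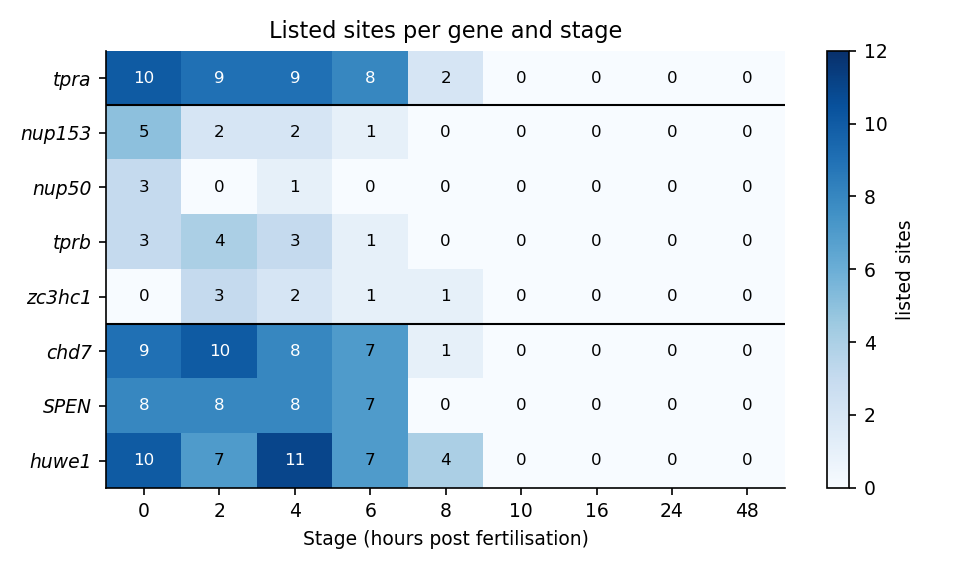
Number of listed m5C sites (cell value and colour) at each stage in hours post fertilisation (x axis) in tpra (top), the other basket genes (middle) and the 3 genes most like tpra by these numbers (bottom). The tpra numbers are 10, 9, 9, 8 and 2 from 0 to 8 hpf and 0 afterwards.

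Genes with at least 5 sites shared between 4 and 6 hpf numbered 14, of which 7 had a lower value at each shared site. Of these 14 genes tpra alone had 8 shared sites, and it was chosen on its number of listed sites. All 8 were called lower by the exact test, a count that no other gene had enough shared sites to reach. The tpra median change of -10.5 points lay within the range of the 14 medians, from -28.6 to -0.71 points, and 3 genes had a lower one.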

How the data were processed

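RNA bisulfite sequencing was made from 18 libraries, 2 at each of 9 stages, and titles gave the stage. According to its methods, the study trimmed reads with cutadapt and Trimmomatic, mapped them with HISAT2 (version 2.10 in the submitters' processing notes) to the converted Zv9 genome and mapped the rest with Bowtie2 to converted transcripts. They filtered reads and genes that resisted conversion, ran a binomial test per site, with the gene's own conversion rate, and combined replicates. The deposited count is the coverage (C and T reads together), and the deposited level is a fraction, given here in percent. A p-value column of the authors was not used. Level times coverage was whole within 1e-06 at all sites, which gave C reads.

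A logistic model across replicates was replaced by Fisher's exact test because the lists hold pooled counts. Alternatives were higher minimums of coverage, C reads and level, Holm's adjustment, means in place of medians, and a z test with wider variance. Tests were adjusted over all sites of a comparison. Both tests were also run on simulated data, with and without extra spread. A pass limit was set only for the exact test on data without it. SciPy 1.17.1 and pandas 2.3.3 were used. In the z test with beta-binomial variance, reads of a stage were given a correlation of 0.00232. Named were tpra, basket genes with a site, the 3 largest falls among other pore genes (1 per gene), and the 3 genes nearest in sites per stage, ties resolved by mean level. Other named genes with 10 or more sites served as background. Of the 4 genes with more than 10, only huwe1, cdk13 and arid1aa were named. The gene and all lists were chosen with earlier results of these data known. The tpra gene ID was not found in the table of current gene names, and the symbol was taken from the lists.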

Additional observations from a re-analysis of the deposited data

How the results depend on the processing

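No paired analysis was possible because the lists combine the libraries of a stage, so leaving out a replicate and a block for it were not run. Of 107 counts and medians of tpra under an alternative 96 stayed close and 11 moved, and of 104 single-site changes 97 kept their side of the threshold. The other 7 were calls of the exact test that were lost with the extra spread. Neither the 96 nor the 97 is a measure of how well the calls held. Among the 96 are counts of 0 calls, which filters and stricter tests could hardly move. A median also counted as close when it went from 18.3% to 25% at 6 hpf, with a level of at least 0.2. A higher coverage minimum left the reads of a site as they were, and changes uncalled by the exact test had no call to lose. How many calls held is given by comparison below. A level of at least 0.2 left 3 sites at 6 hpf, 0 at 8 hpf and 3 called lower from 4 to 6 hpf, of 3 that could be tested, because fewer sites meet it. From 0 to 2 hpf, 0 sites were called higher with the extra spread or with Holm's adjustment, in place of 2. From 0 to 4 hpf, 0 were called lower with either, in place of 1. From 4 to 6 hpf, 5 were called lower with the extra spread and 3 with Holm's adjustment, in place of 8, and from 6 to 8 hpf 1 with either, in place of 2. For the other pore genes the wider-variance test was chosen after seeing the data. Its calls there were 3 higher and 0 lower of 37 sites from 0 to 2 hpf (6 and 1 by the exact test). They were 1 lower of 46 from 2 to 4 hpf (4), 1 higher and 0 lower of 35 from 0 to 4 hpf (3 and 2), and 0 higher of 29 from 4 to 6 hpf (1). Shares over all sites follow, with the exact test in brackets. From 0 to 2 hpf 1.1% were higher and 1.42% lower (4.83% and 4.86%), and from 2 to 4 hpf 0.589% were lower (4.03%). From 0 to 4 hpf 0.66% were higher and 0.848% lower (3.27% and 5.4%), and from 4 to 6 hpf 0.169% were higher (1.01%). Wider variance and a stricter adjustment lower these counts by construction. Sites 4 and 5, with 25 to 87 reads, have the widest intervals.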
